A study of Mus musculus with 4 samples.

Results

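Milk genes and the transcription factors that act upstream of them were examined in 4 primary mouse mammary tumors. The members were chosen as a list of 10 genes out of the 23746 gene rows of each table, 7 that encode milk proteins (Csn1s1, Csn1s2a, Csn2, Csn3, Lalba, Wap and Glycam1) and 3 that encode regulators (Elf5, Stat5a and Stat5b). All 10 were found, each as 1 row with status OK in every tumor. Tumors 26043 and 26044 came from WapCre;Rank;Brca1;p53 triple-mutant females and tumors 26048 and 26050 from WapCre;Brca1;p53 double-mutant females. All 4 tumors thus carried the Cre transgene and the floxed alleles of Brca1 and p53, and the genotypes differ by the floxed allele of Rank. The Cre is the WapCreC line, which per the study is active in luminal and basal mammary epithelial cells without pregnancy. Its promoter is that of 1 of the genes examined here, Wap. Per the study the double-mutant and triple-mutant females were littermates, but which of the sequenced tumors came from littermates is not given. The age, parity and grade of each sequenced tumor are not given in the sources used here. The labels give 1 number per sample, used here to name the tumors. They do not say that the tumors came from separate animals, so the spread between tumors of a genotype is all that a test can use.

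Milk proteins are made by the alveolar cells of the mammary gland, which arise in pregnancy from luminal progenitor cells. Prolactin binds its receptor PRLR, the kinase JAK2 phosphorylates STAT5A and STAT5B, and these factors enter the nucleus and bind DNA at palindromes of the form TTCNNNGAA near casein and other milk genes. ELF5, a factor of the ETS family, acts together with STAT5 in specifying alveolar cells, and RANK signaling is required for the gland to form milk-producing alveoli in pregnancy.

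The 250 bases before the annotated start of 5 milk genes are shown here because each holds a match to a STAT5 or an ETS motif. These 5 are the milk genes with a match to at least 1 motif. The sequences are from RefSeq on GRCm38.p6, the assembly that mm10, the build of the tables, is made from, and are read 5′ to 3′ on the strand of the gene. RefSeq windows were found for 9 of the 10 genes, and that of Csn3 was not among them. The windows are chr5:87665958-87666207 (plus strand) for Csn1s1, chr5:87699426-87699675 (minus strand) for Csn2, chr15:103565082-103565331 (minus strand) for Glycam1, chr15:98482684-98482933 (minus strand) for Lalba and chr11:6638650-6638899 (minus strand) for Wap. Capitals mark matches to TTCNNNGAA, the STAT5 palindrome, and to AGGAAG on either strand (CTTCCT on the strand shown), an ETS core. No match to TTCNNNGAA overlaps a match to AGGAAG.
Csn1s1: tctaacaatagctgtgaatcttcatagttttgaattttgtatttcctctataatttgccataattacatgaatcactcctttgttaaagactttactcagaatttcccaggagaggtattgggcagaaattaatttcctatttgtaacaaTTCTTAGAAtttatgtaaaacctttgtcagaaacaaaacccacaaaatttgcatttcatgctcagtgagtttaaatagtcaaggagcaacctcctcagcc
Csn2: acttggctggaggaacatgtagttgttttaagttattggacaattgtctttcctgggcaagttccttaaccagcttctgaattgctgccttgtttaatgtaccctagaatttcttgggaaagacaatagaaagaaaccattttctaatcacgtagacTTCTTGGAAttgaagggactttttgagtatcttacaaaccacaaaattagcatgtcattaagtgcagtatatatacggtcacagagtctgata
Glycam1: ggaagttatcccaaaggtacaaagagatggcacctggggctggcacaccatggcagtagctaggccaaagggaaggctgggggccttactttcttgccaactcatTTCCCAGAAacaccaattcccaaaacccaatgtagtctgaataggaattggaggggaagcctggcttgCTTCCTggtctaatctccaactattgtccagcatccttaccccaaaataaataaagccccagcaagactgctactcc
Lalba: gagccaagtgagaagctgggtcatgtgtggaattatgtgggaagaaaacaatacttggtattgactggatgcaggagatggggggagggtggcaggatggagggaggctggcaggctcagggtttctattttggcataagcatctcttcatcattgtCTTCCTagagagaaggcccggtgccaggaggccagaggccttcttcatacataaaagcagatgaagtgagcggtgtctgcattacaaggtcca
Wap: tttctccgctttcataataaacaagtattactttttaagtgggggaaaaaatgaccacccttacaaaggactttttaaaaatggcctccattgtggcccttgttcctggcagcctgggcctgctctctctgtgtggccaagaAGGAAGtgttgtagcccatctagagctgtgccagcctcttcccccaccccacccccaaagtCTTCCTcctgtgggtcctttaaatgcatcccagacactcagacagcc

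A match to TTCNNNGAA began 100 bases before the start of Csn1s1, 93 bases before that of Csn2 and 145 bases before that of Glycam1, and was found in 3 of the 9 genes with a window. The windows of Csn1s2a, Lalba and Wap and the windows of Elf5, Stat5a and Stat5b held none. Of 27025 such windows, the first of each gene, 7.18% held the palindrome. AGGAAG was found in 5 of the 9 genes, in Glycam1, Lalba, Wap, Stat5a and Stat5b, with 2 matches in Wap (beginning 108 and 47 bases before the start), against 29.2% of all windows. These matches describe the letters of the windows and carry no measurement of binding.

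Levels are FPKM, fragments scaled to transcript length and to the mapped fragments of each tumor, as deposited by the authors, so levels can be set side by side between genes. A gene entered the test if 2 or more of the 4 tumors reached 1 FPKM, which held for 12752 genes, and limma was fitted to log2(FPKM + 1), triple-mutant minus double-mutant. Of the 10 members 9 were tested, and Glycam1, above 1 FPKM in a single tumor, was not. Wap passed only through the double-mutant tumors and thus had to differ in its levels. FPKM holds no read counts and the depth of each tumor is unknown. The median half-width of the Cufflinks confidence interval was 8.35% to 8.78% of its midpoint for genes of at least 1 FPKM. As a check of the genotypes, Rank (Tnfrsf11a) was at 2.07 and 0.962 FPKM in triple-mutant tumors 26043 and 26044 and at 10.6 and 11.9 FPKM in double-mutant tumors 26048 and 26050. Brca1 was at 3.26, 3.28, 3.84 and 5.69 FPKM and Trp53 at 15.7, 87.8, 149.7 and 103.1 FPKM in the same order of tumors, and both are floxed in all 4.

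Milk gene RNA was higher in double-mutant than in triple-mutant tumors. For 5 of the 6 tested milk genes, and for the regulators Elf5 and Stat5a, both double-mutant tumors lay above both triple-mutant tumors, and the exceptions were Csn2 and Stat5b. Summed over the 7 genes the level was 190.7 and 17.1 FPKM in triple-mutant tumors 26043 and 26044 and 2468 and 6654 FPKM in double-mutant tumors 26048 and 26050. The sum took 0.0276% and 0.00215% of all FPKM in the triple-mutant and 0.348% and 0.896% in the double-mutant tumors. Of the 9 tested members, 7 were higher in both double-mutant tumors and 0 in both triple-mutant tumors, whereas 22.9% of all tested genes had both double-mutant tumors above both triple-mutant tumors and 21.3% the reverse. With a difference of at least 1 log2 unit as well, 6 of the 9 were higher in both double-mutant tumors, against 4.65% of all tested genes. None of the 9 passed the threshold of an adjusted p under 0.05 in limma, and neither did any other gene (0 of 12752, 0%). At an unadjusted p under 0.05, limma gave 5 of the 9 members and 1252 of all tested genes (9.82%). The member counts given here include Wap, whose separation in this direction was fixed by the filter. The members were also chosen with earlier results of these data known, so the counts are a description. In an exact permutation test 2 tumors against 2 cannot go below p = 0.333 for a single gene.

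**Figure D1:**
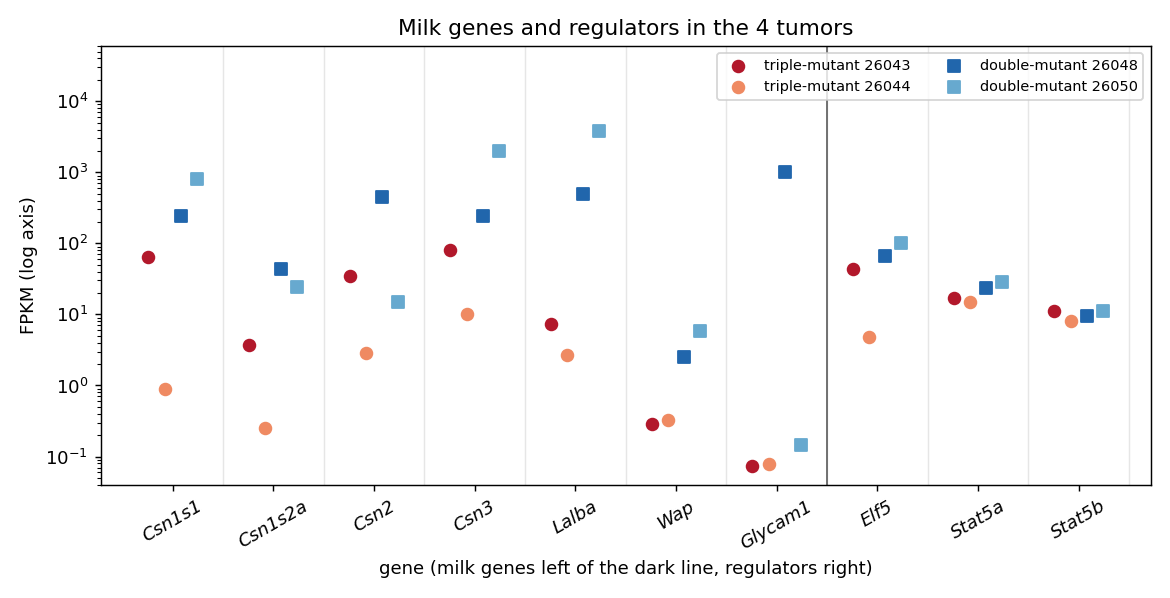
Level of each gene (FPKM, log axis) in the triple-mutant tumors 26043 and 26044 (circles) and the double-mutant tumors 26048 and 26050 (squares), 1 point per tumor. By FPKM the double-mutant tumors lie above the triple-mutant tumors for Csn1s1, Csn1s2a, Csn3, Lalba, Elf5, Wap and Stat5a. Wap and Stat5a overlap when scaled to Krt8 and Krt18, which shifts all genes of a tumor by the same amount. Glycam1 is high in tumor 26048 alone (995.6 FPKM), and the regulators Stat5a and Stat5b span a narrow range.

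The caseins, the calcium-carrying proteins that form milk micelles, were measured first. Csn1s1, alpha-S1 casein (chromosome 5 from 87666224 to 87682574, plus strand), was at 64.1 and 0.882 FPKM in triple-mutant tumors 26043 and 26044 and at 243.7 and 806.5 FPKM in double-mutant tumors 26048 and 26050. The groups did not overlap, but tumors of a genotype lay far apart, by 72.7 times in the triple-mutant pair and 3.31 times in the double-mutant pair. The log2 fold change was -5.33 (standard error 1.80, adjusted p = 0.487 from limma), and it was -2.77 without tumor 26044 and -7.88 without tumor 26043. Csn3, kappa casein, which caps the micelle (chromosome 5 from 87925633 to 87932264, plus strand), was at 81.1 and 9.999 FPKM against 240.7 and 1990 FPKM in the same order. This was also without overlap, and the log2 fold change was -4.53 (standard error 1.41, adjusted p = 0.480 from limma). The table for Csn3 gives an FPKM below its own confidence interval in every tumor, for example 2785 to 2828 FPKM in tumor 26050, and the midpoints of the intervals gave a log2 fold change of -4.30. Without tumor 26050 the log2 fold change of Csn3 was -3.01. Csn1s2a, alpha-S2 casein (chromosome 5 from 87774567 to 87788797, plus strand), was lower in level, at 3.70 and 0.254 FPKM in triple-mutant and 43.4 and 24.2 FPKM in double-mutant tumors. Its groups were separate, and the lower double-mutant tumor was 6.54 times above the higher triple-mutant tumor. Tumors of a genotype lay 1.79 times apart in the double-mutant pair and 14.6 times in the triple-mutant pair. The log2 fold change of Csn1s2a was -3.78 (limma, standard error 0.75, adjusted p = 0.323).

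Csn2, beta casein, the most abundant casein of mouse milk (chromosome 5 from 87692624 to 87699421, minus strand), was the casein whose genotypes overlapped. It was at 34.2 and 2.90 FPKM in triple-mutant tumors 26043 and 26044, at 442.8 FPKM in double-mutant tumor 26048 and at 14.8 FPKM in double-mutant tumor 26050. Tumor 26050, which had the highest Csn1s1 and Csn3, was below triple-mutant tumor 26043 for Csn2. The log2 fold change was -2.84 (standard error 1.93, adjusted p = 0.652 from limma), and it was -0.43 without tumor 26048 and -5.24 without tumor 26050. Between the double-mutant tumors Csn2 and Csn1s2a, and at a low level Csn1s2b, were higher in tumor 26048, whereas Csn3 was 8.27 times and Csn1s1 3.31 times higher in tumor 26050.

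The caseins lie together on chromosome 5 between 87666224 and 87932264, and 9 gene rows overlap this stretch. The 5 that are no members were low. Csn1s2b, an alpha-S2-like casein, had at most 1.04 FPKM, in tumor 26048, and both double-mutant tumors (1.04 and 0.460 FPKM) were above both triple-mutant tumors (0.0426 and 0.0876 FPKM). Odam, an enamel-associated secreted protein next to Csn3, was at 10.7 FPKM in tumor 26050 and at 0.0656 to 0.249 FPKM in the other tumors. The remaining rows, 4930432K09Rik, Gm7337 and 1700066N21Rik, had at most 0.444 FPKM in any tumor. 1700066N21Rik overlaps Csn3 on the opposite strand and was at 0.241 FPKM in tumor 26050 and at 0 in the others. The libraries were made with dUTP, which keeps the strand, but whether the FPKM estimate used it is not given in the sources used here.

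**Figure D2:**
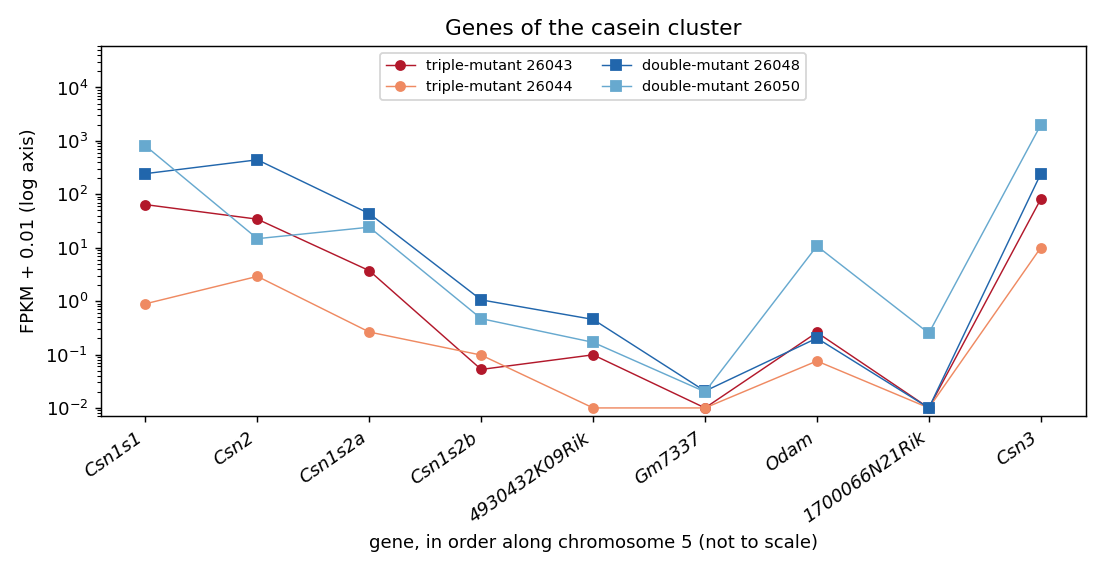
FPKM + 0.01 (log axis) of the 9 gene rows of the casein cluster, in their order along chromosome 5 and not to scale, with 1 line per tumor. The lines of the double-mutant tumors cross at Csn2, at 442.8 FPKM in tumor 26048 and 14.8 FPKM in tumor 26050, and the rows between Csn1s2a and Csn3 are low except for Odam in tumor 26050.

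Of the whey proteins, Lalba showed the widest gap of all members. Lalba, alpha-lactalbumin, the subunit of lactose synthase that directs galactosyltransferase to make lactose (chromosome 15 from 98480400 to 98482683, minus strand), was at 7.27 and 2.64 FPKM in triple-mutant tumors 26043 and 26044 and at 499.0 and 3813 FPKM in double-mutant tumors 26048 and 26050. The lower double-mutant tumor was 68.7 times above the higher triple-mutant tumor, and in tumor 26050 only 23 gene rows had a higher FPKM. The log2 fold change of -7.98 (limma, standard error 1.08, adjusted p = 0.187) was the second largest toward the double-mutant side among all tested genes. The FPKM of Lalba lay above its confidence interval in every tumor, which was 2326 to 2380 FPKM in tumor 26050 and 293.6 to 316.1 FPKM in tumor 26048, and the interval midpoints gave a log2 fold change of -7.68. Wap, whey acidic protein (chromosome 11 from 6635483 to 6638649, minus strand), whose promoter drives the Cre of both genotypes, was low in all tumors. It was at 0.289 and 0.326 FPKM in triple-mutant tumors, with confidence intervals that reach 0, and at 2.53 and 5.87 FPKM in double-mutant tumors. The groups were separate, with a log2 fold change of -1.91 (limma, standard error 0.43, adjusted p = 0.384), which became -3.28 with a pseudocount of 0.1 and -1.32 with the interval midpoints.

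Glycam1, a mucin-like protein of milk that is also made by the high endothelial venules of lymph nodes (chromosome 15 from 103562762 to 103565078, minus strand), was found in a single tumor. It was at 995.6 FPKM in double-mutant tumor 26048, with a confidence interval of 760.6 to 797.7 FPKM, and at 0.146 FPKM in double-mutant tumor 26050. In triple-mutant tumors 26043 and 26044 it was at 0.0736 and 0.0784 FPKM, and in these 3 tumors the confidence interval reached 0. No test was made, since a single tumor reached 1 FPKM. Tumor 26048 was also the highest of the 4 for all 8 adipocyte markers, whose summed level was 2174 FPKM there, 61.1 FPKM in tumor 26050 and 55.3 and 283.9 FPKM in tumors 26043 and 26044. Fabp4 gave 1263, 29.9, 7.01 and 261.1 FPKM of these sums in the same order. Adipoq, the adipocyte hormone adiponectin, was at 56.0 FPKM in tumor 26048. It was at 0.829 and 0.328 FPKM in tumors 26050 and 26043 and at 0 in tumor 26044. The part of adipose tissue in the Glycam1 and Csn2 values of tumor 26048 was not tested. Markers of lymph nodes and high endothelial venules were low, and 5 of the 13 were highest in tumor 26048. Madcam1, a venule adhesion protein, was at 1.37 FPKM in tumor 26048 and at 0.166 to 0.424 FPKM in the others, and Ccl19, a homing chemokine named after its values were seen, at 1.44 FPKM in tumor 26048 and at 0 to 0.374 FPKM in the others. Chst4, which sulfates venule mucins, was at 0.0222 FPKM in tumor 26048 and Ccl21a, a chemokine with near-identical copies, was listed at 0 there. The part of such vessels in the Glycam1 value was not tested. Of the 13 lymph node and venule markers, 9 stayed under 1 FPKM in every tumor, and their sum in tumor 26048 was 16.1 FPKM, of which Gpihbp1, an endothelial protein that binds lipoprotein lipase, gave 11.7 FPKM.

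The make-up of milk gene RNA differed between the tumors of a genotype as well as in amount. In tumor 26050 Lalba gave 57.3% and Csn3 29.9% of the summed FPKM of the 7 genes, and Csn2 gave 0.222%. In tumor 26048 Glycam1 gave 40.3%, Lalba 20.2% and Csn2 17.9%. In the triple-mutant tumors Csn3 was the leading gene, with 42.5% in tumor 26043 and 58.6% in tumor 26044, and Lalba gave 3.81% and 15.5%. The order of the genes in a tumor depended on which column was read. With the midpoints of the confidence intervals Csn3 led in tumor 26050 as well, with 47.2% against 39.5% for Lalba, and in tumor 26048 Csn2 (16.5%), Csn3 (15.8%) and Lalba (15.4%) followed Glycam1 (39.4%). Glycam1 as the leading gene of tumor 26048, Csn3 as that of both triple-mutant tumors and the low share of Csn2 in tumor 26050 (0.211%) were the same with either column. With 2 tumors a genotype and 1 value per tumor these shares are a description, and their counting error is unknown.

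**Figure D3:**
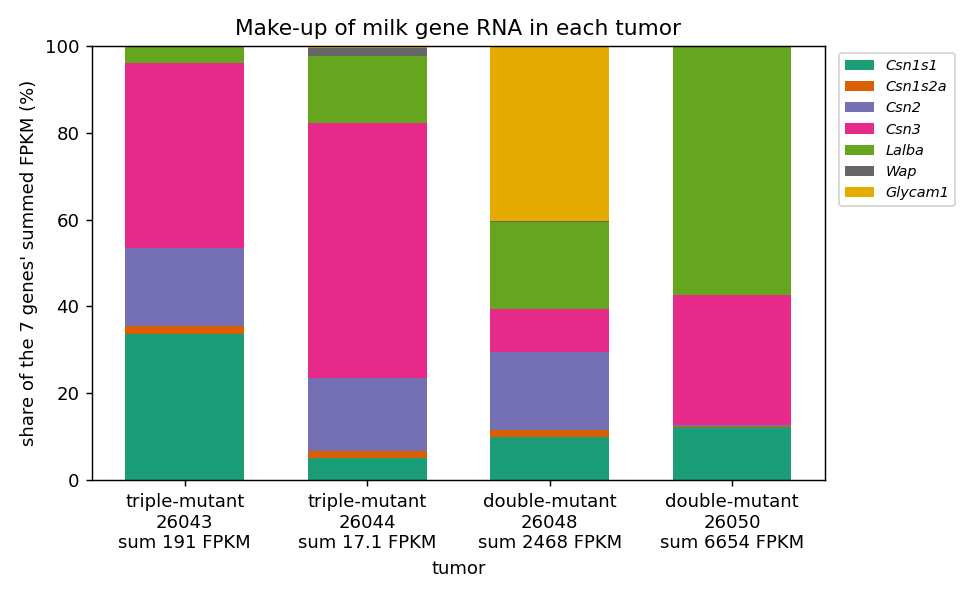
Share of each milk gene in the summed FPKM of the 7 genes (%), 1 bar per tumor, with the sum below each bar. Glycam1 fills 40.3% of the bar of tumor 26048 and Csn3 leads in both triple-mutant tumors, whereas Lalba fills 57.3% of the bar of tumor 26050 by FPKM but 39.5%, below Csn3, by the midpoints of the confidence intervals.

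Of the regulators, Elf5 had the widest difference. Elf5 (chromosome 2 from 103412098 to 103450988, plus strand) was at 43.6 and 4.84 FPKM in triple-mutant tumors 26043 and 26044 and at 66.01 and 102.7 FPKM in double-mutant tumors 26048 and 26050. The order of the tumors was the same as for the sum of the milk genes, and Stat5a had this order too. The share of all tested genes in this order is not given. The Cufflinks intervals of neighbouring tumors in that order did not overlap (4.25 to 5.43, 41.7 to 45.9, 63.5 to 69.2 and 100.3 to 107.0 FPKM). Each interval covers the estimate of 1 tumor and not the spread between tumors. The groups were separate, but the gap between tumors 26043 and 26048 (1.51 times) was narrower than the spread within the triple-mutant pair (9.004 times). The log2 fold change was -2.37 (standard error 1.02, adjusted p = 0.535 from limma) and was -0.90 without tumor 26044 and -3.84 without tumor 26043.

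The STAT5 genes differed less, and neither passed the test. Stat5a (chromosome 11 from 100859351 to 100885169, plus strand) was at 17.0 and 15.1 FPKM in triple-mutant tumors 26043 and 26044 and at 23.8 and 28.8 FPKM in double-mutant tumors 26048 and 26050. The groups were separate by FPKM and tumors of a genotype lay within 1.21 times of each other, with a log2 fold change of -0.67 (limma, standard error 0.28, adjusted p = 0.533). This direction turned to 0.91 when each tumor was scaled to the keratins Krt8 and Krt18. The same scaling moved the median log2 fold change of all tested genes from -0.02 to 1.57. Per 100 FPKM of the mean of these keratins, Stat5a was at 2.82 and 16.9 FPKM in triple-mutant tumors 26043 and 26044. In double-mutant tumors 26048 and 26050 it was at 3.31 and 4.24 FPKM on that scale. Stat5b (chromosome 11 from 100780731 to 100850585, minus strand) was at 11.2, 8.14, 9.57 and 11.2 FPKM in the same order of tumors, and the genotypes overlapped. Its log2 fold change was -0.10 (standard error 0.32, adjusted p = 0.925 from limma), and it was 0.10 without tumor 26044 and 1.48 when scaled to the keratins. The level of Stat5a over that of Stat5b was 1.52 and 1.86 in triple-mutant and 2.48 and 2.58 in double-mutant tumors. The genes are close paralogs, and in GENCODE M21 transcripts 8.21% of the distinct 50-base windows of Stat5a also occur in Stat5b and 11.0% of those of Stat5b in Stat5a, so reads from these stretches cannot be assigned to 1 gene. Stat5a also overlaps Stat3 on the opposite strand. For the other 8 genes at most 0.984% of the windows occur in another gene.

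**Figure D4:**
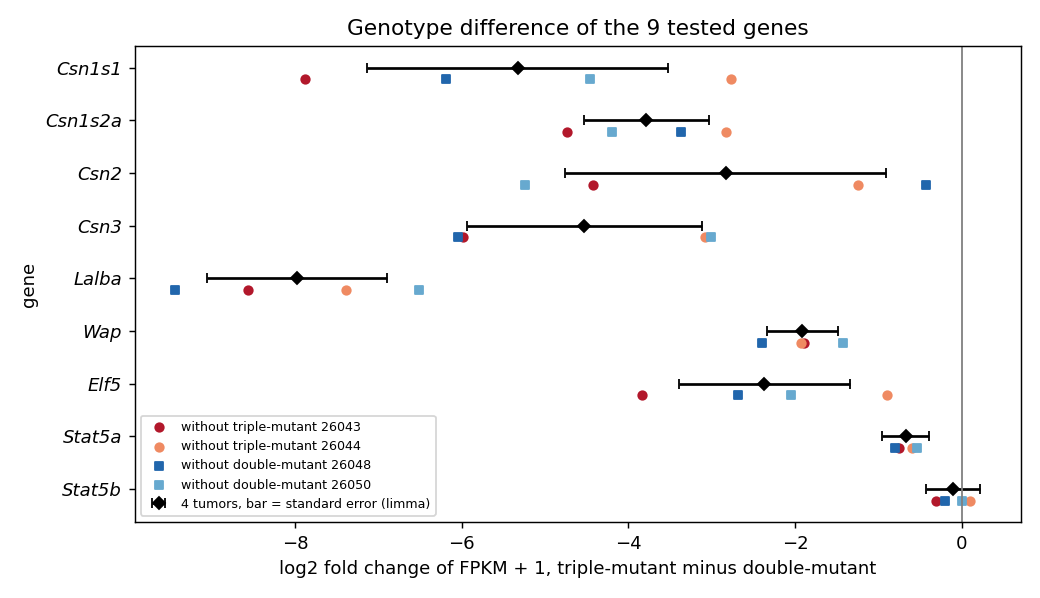
Log2 fold change of FPKM + 1 for the 9 tested genes, triple-mutant minus double-mutant, as black diamonds with the standard error from limma, and the same value with each tumor left out as coloured points. With a tumor left out, Csn1s1 lies between -7.88 and -2.77, Csn2 between -5.24 and -0.43, Lalba between -9.44 and -6.51 and Elf5 between -3.84 and -0.90, and Stat5b is the gene whose sign turns (0.10 without tumor 26044).

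Luminal cells are the source of milk proteins, and the level of their markers was not the same in all tumors. Krt8 and Krt18, the paired keratins of luminal cells, were at 578.5 and 623.9 FPKM in tumor 26043, at 98.3 and 80.3 FPKM in tumor 26044, at 707.6 and 728.9 FPKM in tumor 26048 and at 701.1 and 656.0 FPKM in tumor 26050. Tumor 26044 was the lowest for 11 of the 12 luminal markers. They summed to 4777 and 593.7 FPKM in triple-mutant tumors 26043 and 26044 and to 3372 and 2930 FPKM in double-mutant tumors 26048 and 26050. Both double-mutant tumors were higher for 4 of the 12 (Krt8, Krt18, Epcam and Cldn7), against 22.9% of all tested genes. Both triple-mutant tumors were higher for 1, against 21.3%, and 7 overlapped. That 1 was Krt19, at 1154 and 193.6 FPKM in triple-mutant and 139.1 and 56.7 FPKM in double-mutant tumors. Tumor 26044 was also the lowest for 5 of the 7 milk genes and all 3 regulators. In bulk RNA, fewer luminal cells and less RNA of these genes per luminal cell cannot be told apart. Per 100 FPKM of the mean of Krt8 and Krt18, Lalba was at 1.21 and 2.96 FPKM in triple-mutant tumors 26043 and 26044 and at 69.5 and 561.9 FPKM in double-mutant tumors 26048 and 26050. On the same scale Csn1s1 was at 10.7 and 0.987 against 33.9 and 118.9 FPKM, Csn3 at 13.5 and 11.2 against 33.5 and 293.2 FPKM, and Elf5 at 7.25 and 5.42 against 9.19 and 15.1 FPKM. Wap no longer separated the genotypes, at 0.0481 and 0.365 against 0.352 and 0.865 FPKM. With log2 values scaled in this way, 5 of the 7 members still had both double-mutant tumors above both triple-mutant tumors, and Stat5b had the reverse order. This scaling shifts all genes of a tumor by the same amount, and it moved the median log2 fold change of all tested genes to 1.57. The place of a member relative to that median is therefore the same as without scaling and is no separate result. No other luminal marker was used for scaling.

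The next question was whether other genes of secretion and of the prolactin pathway followed the milk genes, for which 4 lists were used. None of their genes passed the limma threshold. Among other secreted milk proteins, 15 of 21 listed genes were tested, with 6 higher in both double-mutant tumors (22.9% of all tested genes), 0 the other way (21.3% of all tested genes) and a median log2 fold change of -1.55, where that of all tested genes was -0.02. Trf, the iron carrier transferrin, was at 244.5 and 202.1 FPKM in triple-mutant tumors 26043 and 26044 and at 3030 and 1275 FPKM in double-mutant tumors 26048 and 26050, a log2 fold change of -3.14 (adjusted p = 0.225 from limma). Spp1, osteopontin, had a log2 fold change of -2.43 and Pigr, the receptor that carries antibodies into milk, one of -1.74. For milk fat, lactose and ion secretion, 33 of 35 genes were tested, with 19 higher in both double-mutant tumors, 1 (Tph1, which makes serotonin) the other way, against the same shares of all genes, and a median of -0.80. Btn1a1, butyrophilin of the milk fat globule membrane, was at 0.510 and 0.207 FPKM against 2.097 and 16.6 FPKM, and Aqp5, a water channel, at 292.8 and 78.8 FPKM against 757.9 and 655.1 FPKM. Btn1a1 passed the filter only through the double-mutant tumors and Tph1 only through the triple-mutant tumors, so both had to separate as they did. Xdh, xanthine dehydrogenase, the partner of butyrophilin in the globule membrane, was at 11.7 and 7.23 FPKM against 30.9 and 38.0 FPKM and was named after its values were seen. The largest log2 fold changes of this list without overlap were those of Lpl, Cd36 and Fabp3, genes of fatty acid uptake that adipocytes and their vessels also express, at -2.82, -2.69 and -2.49. They were highest in tumor 26048, at 59.6, 34.6 and 47.0 FPKM, the tumor of high adipocyte markers, and the part of those cells was not tested. Without tumor 26043, 12 of the other secreted milk proteins were higher in double-mutant tumors and 2 in the triple-mutant tumor, and 2 and 1 were higher in triple-mutant tumors without 26044 and 26048. For milk fat, lactose and ion secretion, 5, 2 and 3 genes were higher in triple-mutant tumors without 26044, 26048 and 26050. The counts with a tumor left out compare 1 tumor with 2, in which fewer genes overlap. The share of all tested genes is not given for such comparisons, so these counts are no result about the lists.

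The route from prolactin to STAT5 did not follow the milk genes as a list. Of 22 tested genes of 24 listed, 2 were higher in both double-mutant and 6 in both triple-mutant tumors, against 22.9% and 21.3% of all tested genes, and the median log2 fold change was 0.17. Prlr, the prolactin receptor, was highest in triple-mutant tumor 26043 at 34.6 FPKM and at 5.90, 6.05 and 8.21 FPKM in tumors 26044, 26048 and 26050. Jak2, its kinase, was at 11.1, 6.89, 7.77 and 9.93 FPKM in tumors 26043, 26044, 26048 and 26050, with overlapping genotypes. Feedback genes of the pathway differed from each other. Socs2, an inhibitor induced by STAT5, was at 14.2 and 7.95 FPKM in triple-mutant tumors 26043 and 26044 and at 114.3 and 99.1 FPKM in double-mutant tumors 26048 and 26050, a log2 fold change of -3.20 (limma, standard error 0.37, adjusted p = 0.167). Cish, another such inhibitor, was at 11.6 and 3.51 FPKM against 13.6 and 6.74 FPKM and overlapped. Socs1 was higher in triple-mutant tumors, at 14.4 and 10.6 FPKM against 4.59 and 5.02 FPKM. The counts of this list depended on single tumors. Without tumor 26043, 12 genes were higher in the double-mutant tumors, without 26048 or 26050 there were 5, and 13 and 10 were higher in the triple-mutant tumors without 26044 and 26048. Part of this follows from comparing 1 tumor with 2, in which fewer genes overlap. The share of all tested genes is not given for these comparisons, so the counts are no result about the list.

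Of the alveolar and luminal progenitor factors, 6 of 26 tested genes were higher in both double-mutant and 6 in both triple-mutant tumors, near the 22.9% and 21.3% of all tested genes, and the median was -0.19. This list contains Tnfrsf11a itself. Ehf, an ETS factor close to Elf5, was at 46.5 and 2.41 FPKM in triple-mutant tumors 26043 and 26044 and at 62.1 and 50.2 FPKM in double-mutant tumors 26048 and 26050, and its lowest value was again in tumor 26044. Cited1, a cofactor of transcription, was at 11.9 and 81.3 FPKM against 0.773 and 4.78 FPKM, and Ly6d, Krt15 and Tbx3 had log2 fold changes of 3.83, 3.33 and 2.15. Tbx3 passed the filter only through the triple-mutant tumors and thus had to separate in this direction. Without tumor 26043, 14 genes of the list were higher in the double-mutant tumors. Without tumors 26044 and 26048, 13 and 10 were higher in triple-mutant tumors. These counts too compare 1 tumor with 2, without the share of all tested genes, and are no result about the list. Beside these lists, 7 of 9 tested basal and myoepithelial markers and 6 of 8 tested hormone-sensing luminal markers were higher in both triple-mutant tumors, against 21.3% of all tested genes, and 0 of either list were higher in both double-mutant tumors. Of the hormone-sensing markers, Esr1, Pgr and Calca passed the filter only through the triple-mutant tumors and thus had to separate in this direction. The basal markers summed to 1756 and 1323 FPKM in triple-mutant tumors 26043 and 26044. In double-mutant tumors 26048 and 26050 they summed to 75.4 and 49.4 FPKM. Acta2 gave 64.8, 898.4, 59.7 and 31.8 FPKM of these sums in the same order. The hormone-sensing markers summed to 779.1, 90.5, 99.5 and 54.1 FPKM in the same order. Of these sums Ly6a, whose genotypes overlapped, gave 635.3, 37.1, 85.6 and 42.1 FPKM. Skeletal muscle markers were highest in tumor 26050 for 6 of 7 genes, summing to 38.0 FPKM there and to 2.25 to 7.02 FPKM elsewhere. The 9 salivary gland markers found summed to 7.10 to 50.1 FPKM, most of it from Prom2 and Bhlha15, and 5 stayed under 1 FPKM in every tumor. The 10 stromal, endothelial and immune markers found summed to 224.2 and 193.3 FPKM in triple-mutant and to 825.8 and 423.6 FPKM in double-mutant tumors. Most of it came from the collagen genes Col1a1 and Col1a2, except in tumor 26044, where these were at 32.6 and 40.5 FPKM. The fibroblast receptor gene Pdgfra was at 2.90 and 19.1 FPKM against 1.63 and 1.44 FPKM. The endothelial genes Pecam1, Cdh5 and Kdr, named after their values were seen, were highest in tumor 26044. The part of these cells in the levels of the milk genes was not tested.

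**Figure D5:**
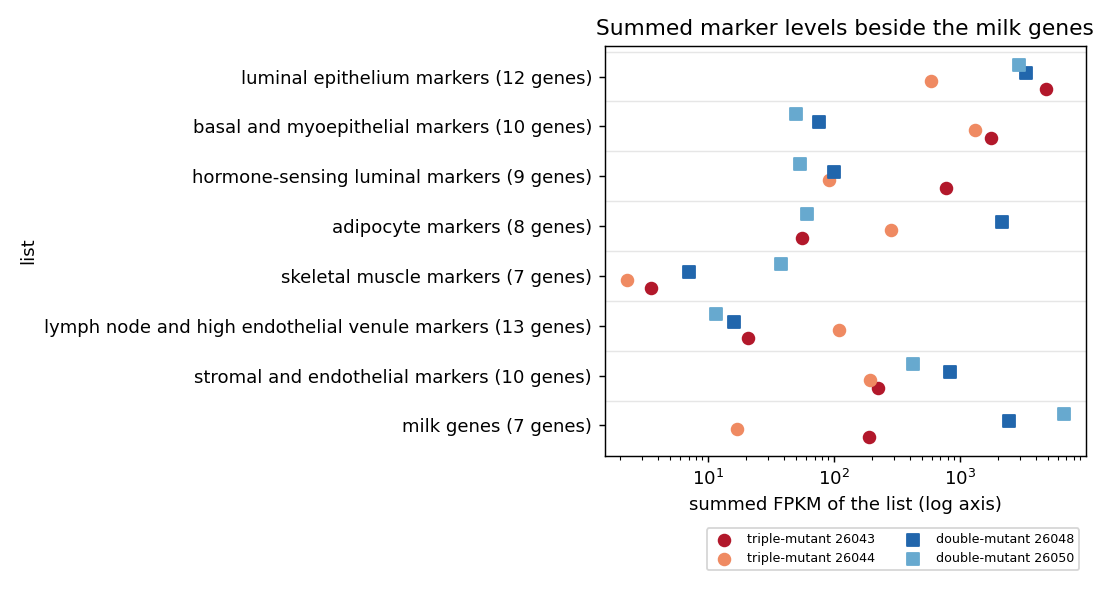
Summed FPKM (log axis) of marker lists and of the 7 milk genes, 1 point per tumor, with the number of genes found in each list. Tumor 26044 stands apart by low luminal markers (593.7 FPKM), tumor 26048 by high adipocyte markers (2174 FPKM), and the basal markers are higher in both triple-mutant tumors.

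For the 7 tested members whose log2(FPKM + 1) ranged over at least 2 units, the genes of most similar pattern were taken as those at the smallest root-mean-square distance between values centred on the mean of the 4 tumors. With 4 tumors this is a description. The nearest genes to Elf5 were Rbm47, Kcnk1 and Spp1, at distances of 0.12, 0.27 and 0.27 log2 units, and Rbm47, an RNA-binding protein, was at 14.3, 0.890, 25.0 and 31.0 FPKM in tumors 26043, 26044, 26048 and 26050. Csn1s2a was closest to Atp6v1c2, a proton pump subunit (0.21), to Acsl4 (0.39) and to Hba-a2 (0.45), and Wap to Ogfrl1 (0.14), Acox2 (0.15) and 9530008L14Rik (0.15). The gene nearest to Csn2 was Cidea, a lipid droplet protein of milk-secreting cells and brown fat (0.56), at 3.65, 0.332, 73.0 and 1.12 FPKM in the same order, followed by Ptprz1 (0.91) and Ubd (0.92). For Csn1s1 the nearest genes were H19 (0.74), 1600029D21Rik (0.96) and Csn3 (0.99), and for Csn3 they were Csn1s1 (0.99), Folr1, the folate receptor (1.04), and 1600029D21Rik (1.06). The nearest to Lalba were farther away, Met, a receptor kinase, and the small RNA genes Mir680-2 and Snord23, at 1.63, 1.78 and 1.82 log2 units.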

How the data were processed

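PolyA RNA of 2 triple-mutant and 2 double-mutant tumors was sequenced by the authors as 50-base single-end reads, aligned to mm10 with TopHat2 2.0.10 and Bowtie 0.12.9 and summarised per gene with Cufflinks 2.1.1. The depth of each tumor is unknown. The deposited tables, 1 per tumor, hold FPKM with the bounds of a Cufflinks interval in the same unit. Groups and the numbers that name the tumors came from the labels. The counts of the study's DESeq2 test were not used here.

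The 4 tables were joined by symbol and position, and 1 was added to start positions. Genes of at least 1 FPKM in at least 2 tumors were tested with limma 3.58.1 (R 4.3.3, eBayes with a trend) on log2(FPKM + 1), a scale that understates changes of low genes, with Benjamini-Hochberg adjustment over 12752 genes and a threshold of 0.05. The fit was also run on simulated data in which all genes had the same spread. That run does not show how the fit behaves for genes whose tumors of a genotype lie far apart. A list gene with 2 rows was given by its higher row, and older symbols were matched through RefSeq. Python 3.11.15 and matplotlib 3.10.9 were used for tables and plots.

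The members and lists were chosen with earlier results of these data known. Named were all members, the targeted genes, the rows of the casein cluster, in each list up to 6 of the genes of largest change of at least 1 log2 unit without overlap, markers of a possible source, and the 3 genes of most similar pattern. The alternatives were no filter, a stricter filter (5 FPKM), a smaller pseudocount (0.1), TPM, quantile normalization, no trend, status OK, interval midpoints, no small RNA genes, scaling to Krt8 and Krt18, and each tumor left out.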

Additional observations from a re-analysis of the deposited data

How the results depend on the processing

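Over 14 alternatives the log2 fold change of Csn1s1, Csn1s2a, Csn2, Csn3, Lalba, Wap and Elf5 kept its sign, and no member passed the limma threshold under any of them (smallest adjusted p 0.107). Wap was not tested with a filter of 5 FPKM, and Glycam1 was tested only without a filter (log2 fold change -4.97, adjusted p = 0.826). Scaling to Krt8 and Krt18 reversed Stat5a to 0.91 and Stat5b to 1.48. It also moved the median log2 fold change of all tested genes from -0.02 to 1.57. Stat5b ranged from -0.31 to 0.10 with each tumor left out. Genes past the threshold among all tested numbered 0 in the main test, 6 with quantile normalization, 5 without the trend and 1 with interval midpoints. With scaling to the keratins there were 11, under the shift of the median of all genes just given. The number of members with both double-mutant tumors higher was 5 to 8 over the alternatives with 4 tumors, and the number with both triple-mutant tumors higher was 1 under scaling to the keratins, an alternative of this count chosen after seeing the data, and 0 to 1 with each tumor left out. With a filter of 5 FPKM, 0 genes of milk fat, lactose and ion secretion were higher in both triple-mutant tumors and 1 gene of the prolactin route in both double-mutant tumors, since fewer genes were tested. With each tumor left out, the genes higher in double-mutant tumors were 8 to 12 of the other secreted milk proteins, 2 to 12 of the prolactin route and 6 to 14 of the progenitor factors, and those higher in triple-mutant tumors were 0 to 2, 6 to 13 and 7 to 13 of these lists and 1 to 5 of milk fat, lactose and ion secretion. For these comparisons of 1 tumor with 2 the share of all tested genes is not given, so the counts are no result about the lists. Of the 40 FPKM values of the members, 17 lay outside their own interval, and the cause was not tested. No paired analysis was possible because the genotypes share no number in the labels. The sources used here also do not say which of these animals were littermates.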
